A study of Homo sapiens with 8 samples.

Results

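The clustered protocadherins are cell-surface adhesion proteins encoded in tandem on chromosome 5, in an alpha, a beta and a gamma cluster. Their m6A peaks were taken from a peak list of U251 cells by name, as every row assigned to a PCDHA, PCDHB or PCDHG gene. These were 198 of 42272 rows, under 42 of the 16701 gene names in the list. They comprised 37 alpha rows, 65 beta rows and 96 gamma rows.

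U251, an established line derived from a human glioblastoma, was the model. The cells had been transfected with a control siRNA (si-NC) or an siRNA against HNRNPC, an RNA-binding protein that reads m6A-dependent changes in RNA structure. In MeRIP-seq, fragmented poly(A) RNA is pulled down with an antibody against N6-methyladenosine (m6A), and a stretch of exon richer in the bound RNA than in the unselected input is called a peak. The labels name 8 libraries in 4 groups of 2: si-NC input, si-HNRNPC input, si-NC 48h and si-HNRNPC 48h, where 48h is the time in hours and the kind of library is not stated for the 48h groups. The deposited list is titled as siRNA immunoprecipitate against siRNA input and holds no values of separate libraries. Both transfections used an siRNA, and neither the title, the columns nor the labels say which one the list describes. No comparison between si-HNRNPC and si-NC was therefore made, no value below carries a replicate error, and the library depth is unknown. Each row gives a fold enrichment (the authors' ratio of immunoprecipitated over input RNA), a log10 p and a log10 false discovery rate (FDR).

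In neurons, each cell expresses a small set of clustered protocadherins, and homophilic binding between matching sets lets a neuron tell its own branches from those of others. Each alpha or gamma gene contributes a large variable exon that encodes the extracellular cadherin repeats and the transmembrane segment. That exon is spliced to short constant exons shared by every gene of the cluster, which encode a common cytoplasmic end. A beta gene consists of a single coding exon and has no constant exons. A read on a variable exon therefore names its gene, whereas a read on a constant exon could come from any gene of its cluster.

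Each variable exon has its own promoter, and most of these promoters carry a conserved element with the core CGCT, which the insulator protein CTCF binds. The sequences are shown because they differ from cluster to cluster around a shared core, and no transcription start was measured here. RefSeq promoters (build GRCh38.p14, 250 bases upstream of each start) were matched by symbol for 47 of 59 member genes. In the last 100 bases before the start, CGCT was found on the plus strand in 44 of the 47 genes, against 32.2% of 27305 genes in the table and 48.8% of them when both strands were searched. Shown are 9 genes whose peaks are described below, 3 per cluster, on the plus strand, with 13 bases on either side of the motif and the motif in capitals.
PCDHA1, chr5:140786089-140786118: ggccacatgatgtCGCTgtacaccacaaag
PCDHA8, chr5:140841133-140841162: agccacatgatgtCGCTgtctaccaagaag
PCDHA12, chr5:140875247-140875276: agtcacatgatgtCGCTctacactcagaag
PCDHB9, chr5:141187077-141187106: agccacaaggtggCGCTgcagactgaagag
PCDHB10, chr5:141192302-141192331: ggccacacggtggCGCTgcaggctaaagag
PCDHB14, chr5:141223266-141223295: agacacatggtggCGCTacaggataagacg
PCDHGA5, chr5:141364110-141364139: ggactctgagtgtCGCTgttgaccaaagtg
PCDHGA9, chr5:141402717-141402746: ggactctgagcgcCGCTgttgatcaactct
PCDHGC3, chr5:141475883-141475912: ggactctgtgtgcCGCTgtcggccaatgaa
The letters around the motif differed between the clusters. For each cluster the word of 10 letters that contains CGCT and occurs in the most genes was looked up, and then searched in the 300 bases of every promoter on both strands. The alpha word TGATGTCGCT occurred in 8 of the 13 alpha genes matched, in no beta or gamma gene, and in 12 of 27305 genes in all. The beta word GGTGGCGCTG occurred in 12 of 14 beta genes, in no alpha or gamma gene, and in 0.341% of all genes. The gamma word GCGCCGCTGT occurred in 9 of 20 gamma genes, in no alpha or beta gene, and in 0.165% of all genes. The words were picked from these promoters, so their counts are no test. A match is a description of these letters and not a binding site, and CTCF binding was not measured. By listed position, the stretch shown for PCDHA1 lies within its row chr5:140785698-140786354. That shown for PCDHB14 lies within its row chr5:141223232-141225990. A stretch upstream of a RefSeq start can thus fall inside a listed peak.

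Many member rows described the same bases. Joining rows whose exon blocks share at least 1 base reduced 198 rows to 105 peaks, or 1.89 rows per peak, and 60.1% of the member rows shared bases with another. Over the whole list 42272 rows became 38193 peaks, 1.11 rows per peak, and 17.7% of rows shared bases. The loss was greatest in the gamma constant exons, where 44 rows became 2 peaks. The 37 alpha rows became 17 peaks, the 65 beta rows 34 and the 96 gamma rows 54. Of the 105 peaks, 102 lay on variable exons only. Here and below, variable exon stands for any bases outside the constant zones, which were set by distance, since exon bounds were not read.

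**Figure D1:**
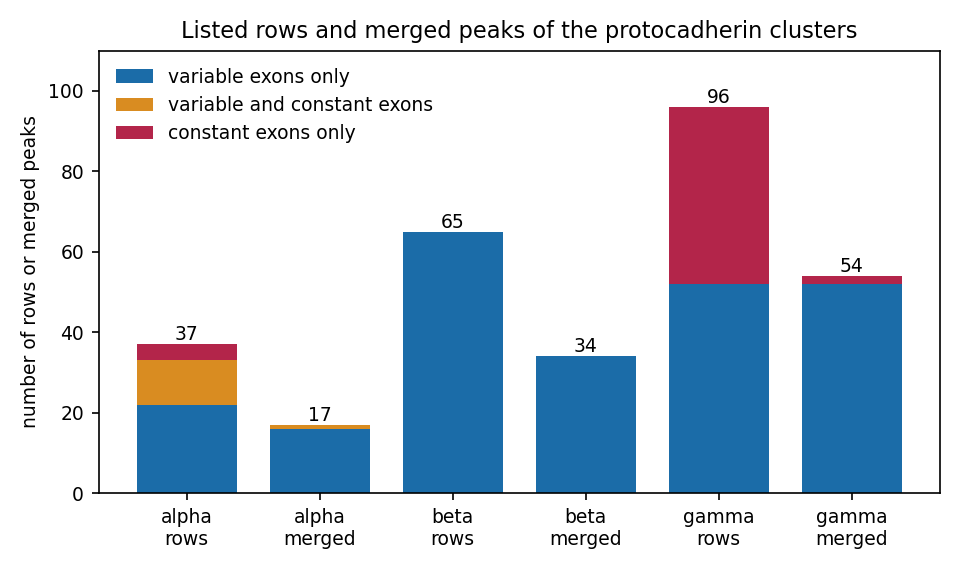
Bars give the number of listed rows and of merged peaks in each protocadherin cluster, stacked by whether they lie on variable exons, on variable and constant exons, or on constant exons. The gamma bar falls from 96 rows to 54 peaks because 44 constant-exon rows merge into 2 peaks, and the alpha bar from 37 to 17.

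At an FDR under 0.05 the list called 81.6% of all rows, and 164 of the 198 member rows (82.8%) passed. At an FDR under 0.001 the background was 62.0%, and 134 member rows (67.7%) passed. After merging, 81 of 105 peaks (77.1%) and 59 of 105 (56.2%) passed these thresholds, against 81.1% and 61.2% of the list merged in the same way. The shares called were thus near those of the list as a whole. Median fold enrichment was 6.54 over the 198 member rows and 5.45 over all rows. After merging it was 8.71 over the 105 member peaks, 44 low-fold gamma rows having become 2 peaks, and 5.45 over the 38193 peaks of the list. By position, 47 of 53 protein-coding genes had a row in their own variable exon: 10 of 15 alpha, 15 of 16 beta and 22 of 22 gamma genes. At an FDR under 0.001 these were 37 genes, 5 alpha, 14 beta and 18 gamma. The 37 include PCDHB3, which passed only by a row with blocks on PCDHB6 and PCDHB7 as well. The row on PCDHB3 alone had a log10 FDR of -2.01. Of 20052 protein-coding symbols, 61.1% had a row and 50.7% had one at that FDR. That background was counted by assigned name, by which 39 member genes had a row (11 alpha, 15 beta and 13 gamma). Taking for each gene the row with the lowest p, median fold was 14.2 over the 47 genes and 7.04 over the 16701 names, and 78.7% and 76.7% of them were below an FDR of 0.001.

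**Figure D2:**
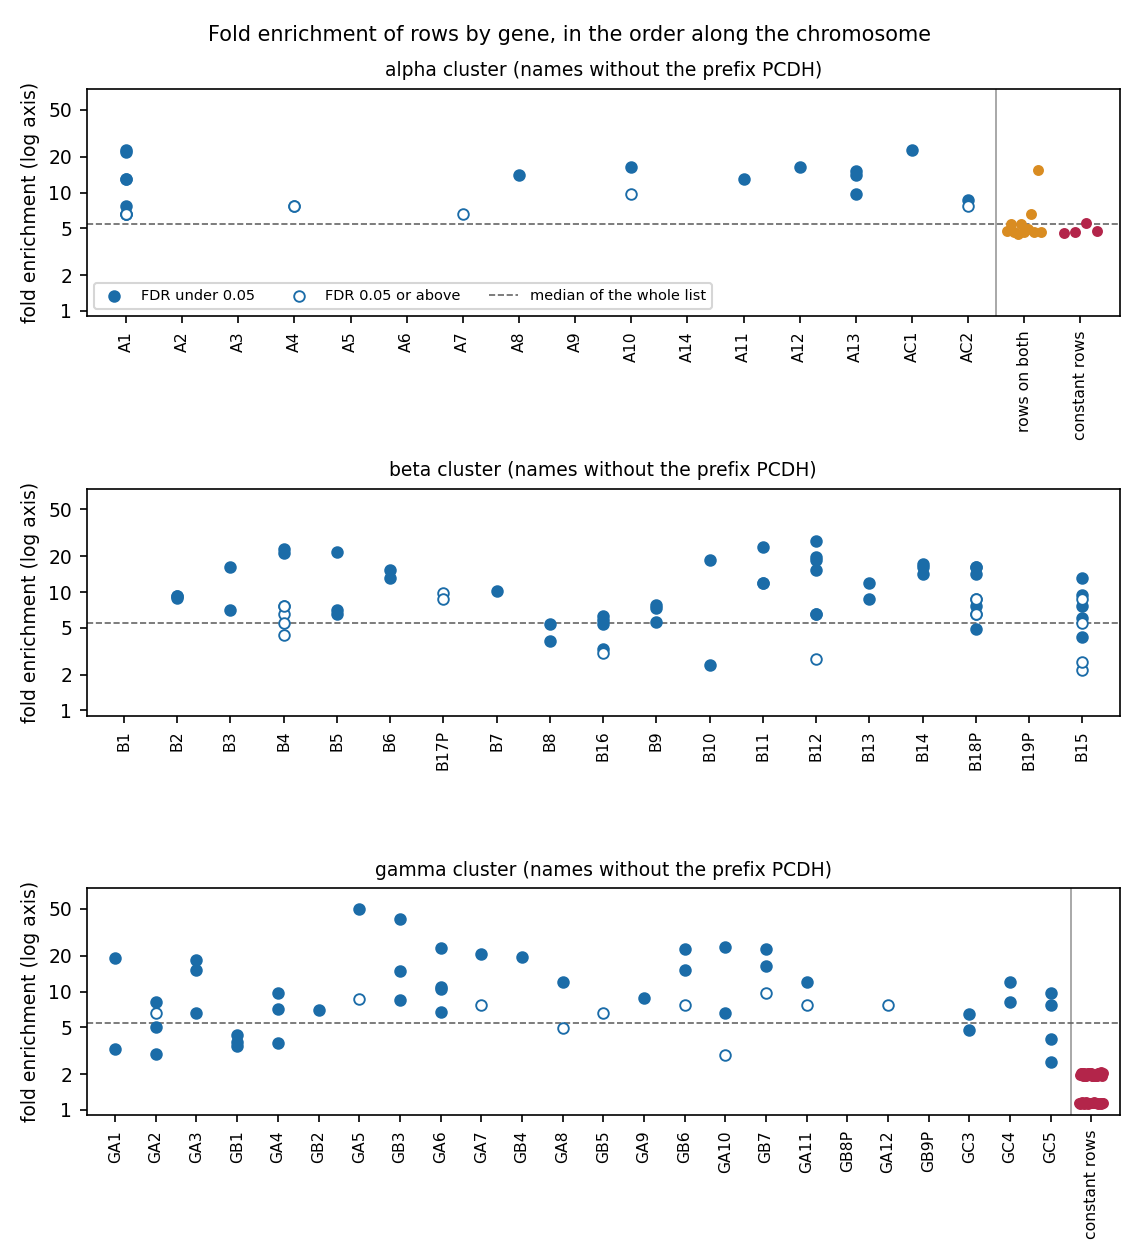
Each point is a row of the list, plotted as its fold enrichment (log axis) at the gene whose variable exon it covers, with genes in chromosomal order; filled points have an FDR under 0.05, the dashed line is the median of the whole list (5.45), and rows that reach the constant exons stand to the right of the vertical line in orange and red. All gamma variable-exon rows, from 2.54 upward, stand above the constant-exon rows, which lie between 1.13 and 2.09.

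The gamma constant exons held 2 peaks, both of low fold. The upstream peak, chr5:141511385-141511547, was listed 22 times with nearly the same bounds, and 138 bases were common to all 22 rows. The positions of peaks are those of the list, whose build the sources do not name. The fold of this peak was 1.13 to 1.16, with a log10 p of -7.19 to -5.00. The downstream peak, chr5:141512735-141512975, began 1187 bases further on and was also listed 22 times. Its fold was 1.94 to 2.09, with a log10 p of -20.6 to -16.4, and 206 bases were common to its rows. Both peaks were labelled 3′-UTR, and no other peak under a member name fell in the 20895 bases counted as the gamma constant zone. In the order of the list, 1 pair of these rows followed the variable-exon rows of each of the 22 gamma genes, so the same bases were listed once per gene. All 44 rows carried the name PCDHGA2.

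These folds lay at the bottom of the list. Of 42272 rows, 111 had a fold at or below 1.16, and 22 of these 111 were the upstream gamma constant peak. The median of its rows, 1.14, stood at percentile 0.175 of all rows, and that of the downstream peak, 2.06, at percentile 14.3. No gamma variable-exon row had a fold at or below 2.09, and the lowest was 2.54. All 44 constant rows, which are only 2 peaks, were nevertheless below an FDR of 0.001. So were 32 of the 52 gamma variable rows (61.5%), near the 62.0% of all rows. The list gives no input level for these or any other exons.

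Assigned names described the gamma cluster poorly. PCDHGA2 (ENSG00000081853) encodes 1 of 12 A-type gamma protocadherins, and 83 of the 96 gamma rows (86.5%) bore its name. Of these, 44 were the constant-exon rows and 39 lay on variable exons. Only 4 of the 39 lay on the variable exon of PCDHGA2 itself, and the other 35 covered the exons of 18 other genes. The 4 rows on its own exon had folds of 4.98, 2.97, 8.17 and 6.54 in their order along the exon, and the row at 8.17 had the lowest p (log10 p of -6.02). The last of them, at 6.54, had a log10 FDR of -0.41 and did not pass. Over all gamma variable rows, 35 of 52 (67.3%) bore the name of another gene than the one they covered. In the alpha cluster these were 6 of 22 (27.3%), and among the beta genes, which do not share exons, 3 of 65 (4.62%). For 9 gamma genes with a row on their exon, among them PCDHGA9, PCDHGB1 and PCDHGC4, no row carried their name at all.

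**Figure D3:**
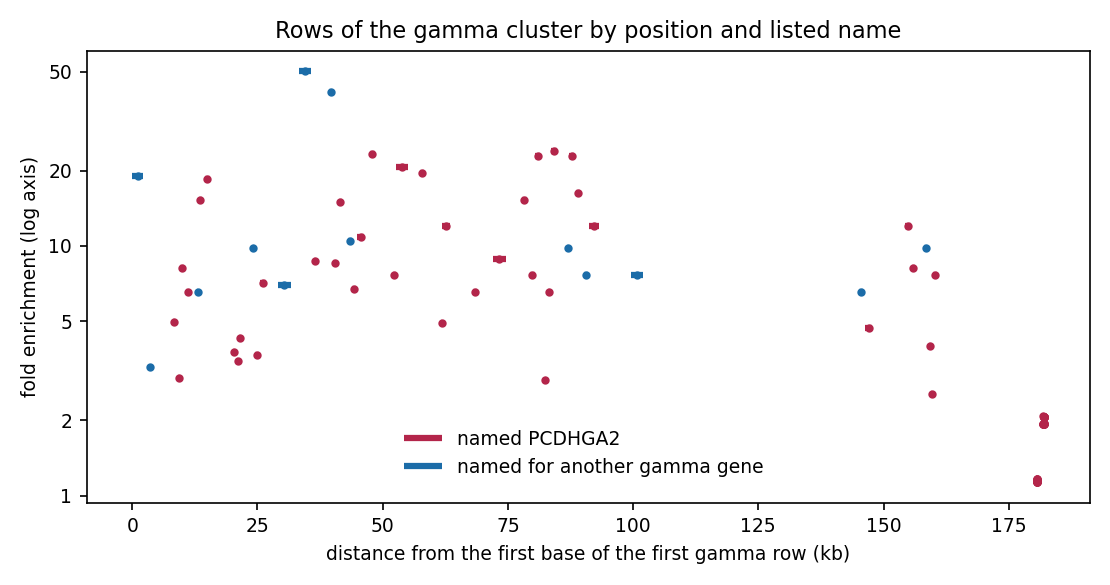
Each mark is a row of the gamma cluster at its distance in kb from the first base of the first gamma row, with fold enrichment on a log axis, in red where the list names it PCDHGA2 and in blue where it names another gene. Red marks run along the whole cluster, 35 of them on exons of other genes, and the marks at the right end are the 44 constant-exon rows with folds of 1.13 to 2.09.

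The gamma A genes gave 29 variable-exon peaks with a median fold of 8.17, of which 14 passed an FDR of 0.001 (48.3%, against 61.2% of merged peaks over the list). PCDHGA9, covered by 1 row of 2449 bases named PCDHGA2, had the lowest p of the family, with a fold of 8.89 and a log10 p of -78.8. PCDHGA4 had 3 peaks with folds of 9.80, 3.67 and 7.08, and the lowest p was at 7.08 (log10 p of -29.3). PCDHGA1, the first gene of the cluster, had a peak of 2184 bases with a fold of 19.1 (log10 p of -17.5) and a short one of 91 bases at 3.27. The highest fold of all 198 rows, 50.1, was that of PCDHGA5, over 2449 bases with a log10 p of -14.8. Its second row had a fold of 8.71 and a log10 FDR of -1.28, which did not pass.

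Within a gamma A gene the folds could differ widely. PCDHGA6 had 4 peaks in a row along the gene with folds of 10.5, 6.72, 10.9 and 23.4, all below an FDR of 0.001. PCDHGA10 had folds of 2.90, 6.54 and 24.0, an 8.28-fold range within the exon of 1 gene, and only the last passed an FDR of 0.001 (log10 p of -8.46). PCDHGA3 had folds of 6.54, 15.3 and 18.5. PCDHGA7 had 7.63, which did not pass an FDR of 0.05, and 20.7. PCDHGA12 had a single row, with a fold of 7.63 and a log10 FDR of -0.651, which did not pass.

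The gamma B genes gave 15 variable-exon peaks with a median fold of 9.80. Of these, 12 (80.0%) passed an FDR of 0.001, against 61.2% of merged peaks over the list. These few peaks lay on 7 genes of 1 list and are not replicates, so the difference between the shares was not tested. PCDHGB2 had a single peak that spanned 2490 bases, with a fold of 6.95 and the lowest p of the family (log10 p of -208). PCDHGB1 had 3 peaks of similar, lower fold, at 3.77, 3.47 and 4.27, with a log10 p of -16.5 for the first. PCDHGB3 ranged furthest, with 41.4 in its 5′-UTR row and 8.56 and 15.0 further along, and all 3 passed an FDR of 0.001. PCDHGB6 had folds of 15.3, 7.63 and 22.9, and PCDHGB7 of 9.80, 22.9 and 16.3, of which the 7.63 and the 9.80 did not pass an FDR of 0.05. PCDHGB4 had 1 peak at 19.6. The single row of PCDHGB5, at 6.54, did not pass. No row lay on the pseudogenes PCDHGB8P and PCDHGB9P.

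The C-type genes, which lie at the downstream end of the alpha and gamma clusters and are known in the mouse for expression that is less selective than that of the other genes, were all covered. PCDHGC3 had the lowest p of every clustered protocadherin. Its 5′-UTR row, chr5:141475947-141476727, had a fold of 6.51 and a log10 p of -645, and the row downstream, chr5:141477267-141478647, named PCDHGA2, a fold of 4.70 and a log10 p of -379. For both, and for the main row of PCDHB14 below, the FDR was listed as 0 (a log10 FDR of -inf). PCDHGC5, next to the constant exons, had 4 peaks, at 9.80, 3.99, 2.54 and 7.63, with log10 p between -9.86 and -2.14. PCDHGC4 had 2, at 12.0 and 8.17. In the alpha cluster PCDHAC1 had 1 row of 2190 bases, named PCDHA6, with a fold of 22.9 and the lowest p among alpha rows on variable exons only (log10 p of -12.3). PCDHAC2 had variable rows at 8.71 and 7.63, of which the latter did not pass an FDR of 0.05.

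Over all member rows, the highest folds and the lowest p belonged to different genes. The alpha rows on variable exons only were an exception: PCDHAC1 had their lowest p and, with PCDHA1, their highest fold, 22.9. PCDHGC3, PCDHB14 and PCDHGB2, with the lowest p of their families, had folds of 6.51, 16.4 and 6.95, whereas PCDHGA5 and PCDHGB3, with folds of 50.1 and 41.4, had a log10 p of -14.8 and -11.9.

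**Figure D4:**
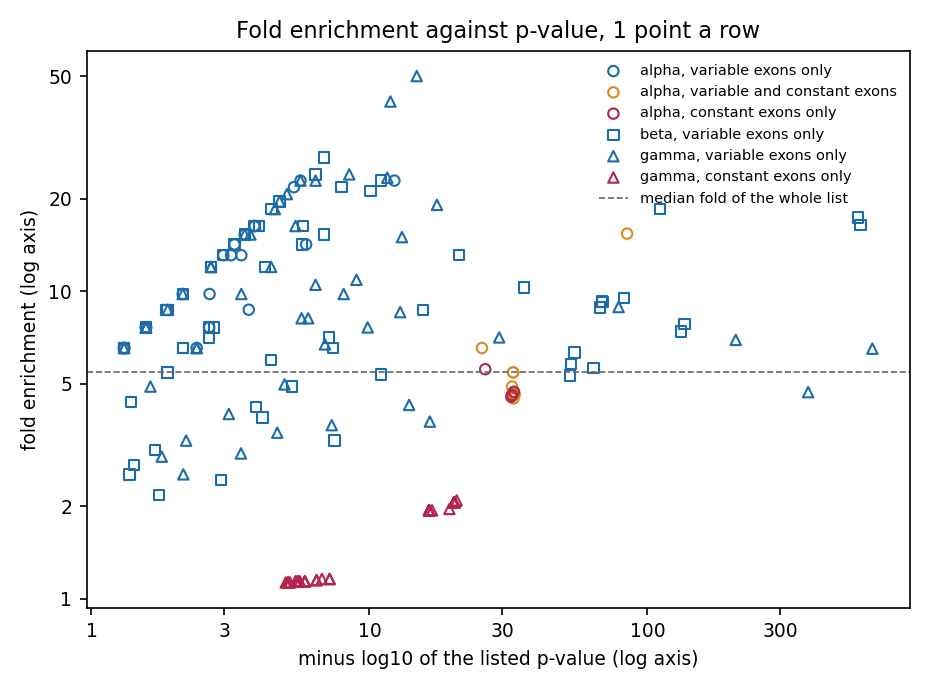
Each point is 1 of the 198 member rows, with minus log10 of its listed p on the horizontal log axis and its fold enrichment on the vertical log axis; shapes give the cluster and colours the exon class. Gamma constant-exon rows sit lowest (1.13 to 2.09), PCDHGA5 and PCDHGB3 highest (50.1 and 41.4), and PCDHGC3 furthest to the right (a log10 p of -645).

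The beta genes gave 34 merged peaks with a median fold of 9.52, of which 19 (55.9%) passed an FDR of 0.001, against 61.2% of merged peaks over the list. PCDHB14 stood out by p: the row that covered 2759 bases, chr5:141223232-141225990, had a fold of 16.4 and a log10 p of -585, and a row of 2 blocks over the same exon had 17.4 and -574. PCDHB9 had folds of 5.62, 7.39 and 7.84, with log10 p of -64.0, -132 and -136, of which the row at 5.62 also had a block on PCDHB16. PCDHB10 had a peak of 2247 bases at 18.5 (log10 p of -111) and a second of 120 bases at 2.43. PCDHB2 had 3 rows over the same bases with folds of 8.87, 9.26 and 9.23 and log10 p of -67.7, -68.7 and -68.9. PCDHB16 had a fold of 6.32 (log10 p of -54.6) and PCDHB7 of 10.3 (log10 p of -36.0).

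Other beta genes combined a high fold with a weaker p. PCDHB12 had the highest beta fold, 27.2, with a log10 p of -6.86, and its 7 rows ranged down to 2.72. PCDHB11 reached 24.0 (log10 p of -6.40), PCDHB4 22.9 (log10 p of -11.0) and PCDHB5 21.8 (log10 p of -7.94). PCDHB4 and PCDHB15 had the most peaks, 5 each. The best row of PCDHB15 that lay on no other gene had a fold of 13.1 and a log10 p of -21.0. PCDHB1, which lies apart at the upstream end of the cluster, was the only coding beta gene with no row. The pseudogene PCDHB18P had 9 rows with folds of 4.90 to 16.3, PCDHB17P had 2, at 9.80 and 8.71, neither of which passed an FDR of 0.05, and PCDHB19P was reached only by a row shared with PCDHB5.

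Some beta rows joined genes. In 5 of the 65 beta rows the exon blocks lay on more than 1 gene, as in the row named PCDHB15 with blocks on PCDHB14 and PCDHB15, which had a fold of 9.51 and a log10 p of -82.4. A row of 7 blocks named PCDHB4 lay on PCDHB3, PCDHB6 and PCDHB7, with a fold of 16.3 and a log10 p of -4.00. Values of such rows belong to no single gene. A further limit was overlap with other transcripts. Within the clusters lay 17 rows with other names, 15 of them assigned to the minus strand, and 8 of the 17 shared bases with member rows. Among them were rows of AC244517 over PCDHB11 with folds of 46.8 and 51.2. The libraries were stranded, but the sources used here do not state whether peak calling took account of strand, so for a member row that shares bases with them the transcript of origin is uncertain. These were 4 rows: the row of PCDHB11 at 24.0, the row of PCDHA12 at 16.3, the row of 7 blocks named PCDHB4 and a row of 3 blocks named PCDHB10.

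Rows over the same bases could carry different folds. Among variable-exon rows, 46 pairs shared bases directly, 40 of them beta and 6 alpha. In 7 of the 46 pairs the folds were the same, and in 16, all beta, the higher was over 1.5 times the lower. For PCDHB5 the row of 3410 bases had a fold of 21.8 and the row of 2 blocks and 869 bases 6.54, with log10 p of -7.94 and -7.39. For PCDHB15, a row of 115 bases had a fold of 4.20 and a row of 777 bases that contains it 13.1. The median ratio over the 46 pairs was 1.17, and in the 6 alpha pairs the highest was 1.17. Nothing in the list says which row of an overlapping pair belongs to which library or transcript.

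The alpha cluster was covered in another way. Of 37 alpha rows, 22 lay on variable exons only, 11 joined a variable exon to the constant exons by splicing, and 4 lay on constant exons only. The 15 rows that reached the constant exons all ended in the same last block, which began at chr5:141009627 and ended between 141009949 and 141009959, with 323 bases common to all. In 14 of them the fold was 4.48 to 6.54, with a median of 4.68 and a log10 p of -33.3 to -25.4. These values were nearly the same whether a row held 1 or 9209 variable bases, while its constant bases were 450 to 600. The exception was a row of PCDHAC2, chr5:140966829-141009954, with 6 blocks, 2652 variable and 758 constant bases, a fold of 15.4 and a log10 p of -84.6. Since they share the last block, these 15 rows counted as 1 merged peak, which covered 28834 bases of exon.

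Rows that lay on alpha variable exons only had higher folds and weaker p. Their 16 merged peaks had a median fold of 11.45 (6.54 to 22.9), and 5 (31.2%) passed an FDR of 0.001, against 61.2% of merged peaks over the list. PCDHA1, the first gene, had 4 peaks with folds of 7.63, 13.1, 22.9 and 6.54, the last of which did not pass an FDR of 0.05. PCDHA13 had folds of 14.2, 15.3 and 9.80 and, among the alpha genes outside the C type, the row with the lowest p (log10 p of -5.92). PCDHA12 and PCDHA10 each reached 16.3 with the same log10 p of -3.86, PCDHA8 14.2 (log10 p of -3.27) and PCDHA11 13.1 (log10 p of -2.98). The row given to PCDHA10, of 5033 bases, bore the name of the pseudogene PCDHA14 in the list. Its other row, at 9.80, was named PCDHA6. By position no row was assigned to PCDHA14. PCDHA4 and PCDHA7 had only rows that did not pass an FDR of 0.05, at 7.63 and 6.54. PCDHA2, PCDHA3, PCDHA5 and PCDHA9 had no row of their own but shared in spliced rows, and PCDHA6 had none by position although 8 rows carried its name. With the spliced rows, 14 of 15 coding alpha genes were touched.

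Equal values in different genes recurred. The 10 most frequent pairs of fold and p in the list, such as 6.54 with a log10 p of -1.31 in 1502 rows, made up 13.3% of all rows, 45.5% of the alpha variable rows (10 of 22), 21.5% of the beta rows (14 of 65) and 19.2% of the gamma variable rows (10 of 52). The folds themselves lay on steps. A step of 1.09, found from the whole list, gave to rounding 33.5% of all folds as whole multiples, including 6.54, 7.63 and 9.80. It gave 22 of 22 alpha variable rows, 41 of 65 beta rows and 29 of 52 gamma variable rows, but none of the 44 gamma constant rows and 3 of the 15 alpha rows that reach constant exons. Above 10 the listed folds are rounded to 1 decimal, so some of these matches fall on a step by rounding alone. The sources used here do not state how the caller arrived at these values.

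The regions assigned to the rows also changed with merging. As listed, 33.8% of member rows were labelled 5′-UTR, 28.8% exon and 37.4% 3′-UTR, against 23.5%, 32.3% and 44.1% over the list. With 1 label per merged peak these became 33.3%, 43.8% and 22.9%, since 44 of the 74 member rows labelled 3′-UTR were the gamma constant rows. Among the 57 variable-exon rows labelled 5′-UTR, 39 began exactly at a gene start given in the list and 20 covered more than 1000 bases, so the label covers coding sequence as well. Variable-exon rows were long, with a median of 687 bases against 405 over the list.

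For reference, 61.1% of the 20052 protein-coding symbols in the RefSeq table had a row in the list, and 50.7% had one at an FDR under 0.001. Among adhesion genes outside the clusters, 9 of 12 non-clustered protocadherins had a peak, 8 of them at an FDR under 0.001, with a median fold of 9.74 at the lowest-p row of each gene. PCDH17 had a fold of 11.7 (log10 p of -289), PCDH10 22.0 (log10 p of -227), PCDH1 8.44 (log10 p of -184) and PCDH7 9.74 (log10 p of -90.7). PCDH11X, PCDH15 and PCDH20 had none. Of 19 cadherins 13 had a peak, 9 of them at an FDR under 0.001, with the lowest p in CDH4 at a fold of 10.3 (log10 p of -1190). Of 13 genes for chromatin proteins that act at the clusters, 11 had a peak, 10 of them at an FDR under 0.001. CTCF, whose binding to the promoters shown above was not measured, had a fold of 6.50 (log10 p of -308). The histone methyltransferase gene SETDB1 had 8.70 (log10 p of -278) and the cohesin loader gene NIPBL 13.7 (log10 p of -167). The cohesin subunit gene RAD21 and DNMT3B had none. The kinase genes PTK2 and PTK2B, whose products bind the constant cytoplasmic end, had folds of 3.66 and 5.05. A gene without a row may lack methylation or expression, and the list cannot tell these apart.

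All 8 glial markers examined had a peak at an FDR under 0.001, against 50.7% of protein-coding symbols, with the lowest p in SOX2, NES, SOX9 and CD44. Peaks were also listed for 2 of 4 neuronal markers (SYT1 and SNAP25), 2 of 4 oligodendrocyte markers, 3 of 3 endothelial markers and 1 of 3 leukocyte markers, and at that FDR for 1, 2, 1 and 1 of them. These lists are short, and no cell type is called present or absent from them. RBFOX3, STMN2, MOG, MAG, PTPRC and CD3E had none. The endothelial marker CDH5 had a fold of 10.6 (log10 p of -381), whereas PECAM1 and VWF did not pass an FDR of 0.05. The part of other cell types in the protocadherin peaks was not tested.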

How the data were processed

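MeRIP-seq of U251 cells comprised 8 libraries, 2 in each of 4 groups (si-NC and si-HNRNPC, input and 48h). In the submitters' processing notes fastp and HISAT2 are named. The peak caller, genome build, annotation and any pooling of libraries were not given in the sources used here. Of the 42 member names, all matched RefSeq GRCh38.p14, and 25 had the same gene start or end there. Deposited values were, per peak, positions and exon blocks, the authors' fold enrichment (a linear ratio of immunoprecipitate over input), their p-value, and its log10 and the log10 FDR, treated as a score. None is per library (0 such columns were left out), so depth is unknown and nothing could be tested.

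Rows sharing at least 1 exon base were merged, with the values of the lowest-p row kept, after the merging had been tested on simulated data. A constant zone began 3000 bases past the start of PCDHAC2 or PCDHGC5. Bases outside the constant zones counted as variable, since exon bounds were not read. Rows were assigned to the gene sharing most bases, using the RefSeq gene order. A gene reached to its end or to the next gene, and at most 10000 bases past its start. Constant-zone peaks were all named, as were, per family, the 4 genes with most peaks, highest fold and lowest p, members without a peak, PCDHGA2, and up to 4 genes per related list by p. Single genes outside this rule (among them PCDHA4, PCDHA7, PCDHA11, PCDHB2, PCDHB7, PCDHGA12, PCDHGB5, the pseudogenes and AC244517) and the promoter motifs were chosen after values or sequences were seen. The members and lists were chosen with earlier results of these data known. Alternatives covered the FDR, fold and merging rules, the zone, single-block rows and naming. Python 3.11.15, pandas 2.3.3, NumPy 2.4.6, SciPy 1.17.1 and matplotlib 3.10.9 were used.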

Additional observations from a re-analysis of the deposited data

How the results depend on the processing

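Of 73 alternative values over 12 results, 61 stayed within the limits for a change (1.5 times for counts and folds, the 95% Wilson interval for shares) and 12 moved. The number of merged peaks went from 105 to 60 with rows at an FDR under 0.001, to 64 when rows were merged by genomic span with introns included, and to 198 without merging. Without merging, the share of gamma peaks in constant exons rose from 3.70% to 45.8% and that of alpha peaks reaching constant exons from 5.88% to 40.5%. With rows of a single exon block the alpha share was 0. At an FDR under 0.001 the alpha share was 16.7% and the gamma share 5.88%, inside wide intervals. Alpha genes with a peak in their own variable exon fell from 10 to 5 at an FDR under 0.001, and gamma genes from 22 to 13 by assigned name. The share of member rows labelled exon went from 28.8% to 22.4% at an FDR under 0.001 and to 43.8% with 1 label per merged peak, and the share labelled 3′-UTR from 37.4% to 45.5% and 22.9%. An alternative chosen after seeing the data cut the spliced alpha rows where the constant zone begins and gave 27 alpha peaks in place of 17, of which 1 was constant. No paired analysis was possible because values of separate libraries were not in the list, which also meant that leaving out a replicate could not be tried. With depth unknown, a gene without a peak cannot be told from one too weakly covered.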
